A study of Mus musculus with 44 samples.

Results

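The genes for the proteins of the cytosolic ribosome were described in 44 single cells from mouse hindlimb muscle. Members were the genes whose symbol begins with Rpl, Rplp or Rps followed by a digit, without the Rps6k kinases, of which 7 were left out. This gave 87 of the 12707 gene symbols measured. The cells came from adult C57BL/6 mice of the genotype Prrx1-CreERT;Tomato, given 2 mg of tamoxifen once daily on 3 days. In such mice tamoxifen lets a Cre recombinase made under Prrx1 control switch on a red reporter, and every cell analysed here had been sorted as Tomato+ and picked singly. The samples used here form this 1 group, with no untreated cells among them, and their labels name no animals. All cells together were therefore treated as 1 sample: no test was run, and a difference between cells describes only these cells.

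A ribosome has a large subunit, which joins amino acids, and a small subunit, which reads the mRNA. Each is built from ribosomal RNA and a fixed set of proteins, most of them present once per ribosome, named Rpl for the large and Rps for the small subunit. The exception is the stalk of the large subunit, where pairs of Rplp1 and Rplp2 sit on Rplp0 and bring in translation factors. In mammals the mRNAs of these proteins begin with a run of pyrimidines (the 5′ TOP motif), through which the mTOR pathway controls their translation. Fibroblasts and other stromal cells of muscle, like nearly all cells, need these proteins continuously.

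By name, 48 members were large subunit proteins or their copies, 3 were stalk proteins and 35 were small subunit proteins or their copies. The last, Rps19bp1, is a partner of Rps19 and the regulator Sirt1, not a ribosomal protein, and meets the name rule only by its spelling. In the GENCODE annotation of GRCm38 all 87 had a position, on 19 chromosomes, with 4 on X. A total of 81 were annotated as protein coding and 6 as pseudogenes (Rps3a2, Rps3a3, Rpl37rt, Rpl6l, Rps12l1 and Rps4l). Rpl13, Rps27, Rpl3l and Rpl10l are not analysed here.

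Promoter sequence was available from RefSeq (GRCm38.p6) for 62 of the 87. The 6 members with the longest uninterrupted runs of pyrimidines from the annotated start are shown, because such a run is the defining feature of this gene class. Each line gives 30 bases before the start and 20 from it, 5′ to 3′ on the strand of the gene, and capitals mark the pyrimidine run that spans the start. The windows lie at chr7:109519165-109519214 on the plus strand for Rpl27a and, on the minus strand, at chr14:18270967-18271016 for Rpl15, chr2:39005112-39005161 for Rpl35, chr17:27635225-27635274 for Rps10, chr17:33955646-33955695 for Rps18 and chr4:86857348-86857397 for Rps6.
Rpl27a: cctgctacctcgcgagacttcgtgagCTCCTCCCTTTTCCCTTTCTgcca
Rpl15: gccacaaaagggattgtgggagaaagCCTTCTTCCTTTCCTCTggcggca
Rpl35: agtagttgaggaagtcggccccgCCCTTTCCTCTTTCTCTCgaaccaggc
Rps10: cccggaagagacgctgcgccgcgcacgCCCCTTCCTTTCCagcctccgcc
Rps18: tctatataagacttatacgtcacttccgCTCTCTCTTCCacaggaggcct
Rps6: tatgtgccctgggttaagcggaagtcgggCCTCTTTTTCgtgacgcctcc

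At least 5 pyrimidines in a row from the start were found in 16 of the 62 members (25.8%), against 5.28% of the 27025 genes with a promoter in the same table. Among 68 genes for mitochondrial ribosomal proteins, which serve another ribosome, the share was 1.47%. With the further condition that the first base is C, the form in which a TOP mRNA starts, the members numbered 13 (20.97%) and all genes came to 3.01%. A start annotated a few bases off loses the run, so a looser measure was also taken. A run of at least 8 pyrimidines within 25 bases of the start was held by 50% of the members and by 22.3% of all genes.

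Short motifs were counted over the whole window of 250 bases before to 50 bases after the start. On the strand of the gene, CTTTCC was found in 40.3% of the 62 members and 16.01% of all promoters. For CTCTTT these shares were 37.1% and 13.7%, and for CTTTTC 20.97% and 12.9%. In the promoters of the 9556 genes measured in these cells the 3 shares were 17.4%, 12.6% and 12.6%. These pyrimidine motifs can overlap one another and the runs shown above. On either strand, CCGGAAG, the core bound by GABP and other ETS factors, was found in 40.3% of members, 9.93% of all promoters, 19.6% of those of measured genes and 36.8% of the mitochondrial ribosomal protein genes. AAGATGG, a YY1-type motif, was found in 14.5% of members, 7.28% of all promoters, 8.49% of those of measured genes and 19.1% of the mitochondrial ribosomal protein genes. The GC box GGGCGG was found in 61.3% of members against 38.2% of all promoters, but in 68% of those of measured genes and 50% of the mitochondrial ribosomal protein genes. TATAAA was found in 11.3% of members, below the 15.7% of all promoters and above the 9.03% of those of measured genes. The median GC content was 59% over member promoters and 52.7% over all, and its part in these shares was not tested. A match is a run of letters and not a measured site.

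Levels are log2(FPKM + 1), where FPKM counts fragments relative to transcript length and to the size of the library, so that levels of different genes can be compared per length. The cells had been given nearly the same distribution of values before deposit, with linear values summing to between 579620 and 579910 in each. Levels are therefore closer to ranks within a cell than to amounts of RNA, and sequencing depth is unknown. Low values were shared between linked libraries, so a gene is counted as present at a log2 value of 5 or more, an FPKM of 31. Rank correlations over the other genes placed 42 cells in 6 blocks of linked libraries and left 2 cells, 30 and 44, as a pair. The labels give a tissue and a reporter, not a cell type. Of 7 fibroblast markers, Ly6a was present in 44 cells and Pdgfra, the least frequent, in 31, while Pecam1, Cdh5, Kdr, Ptprc and Itgam were present in 0 and Cd68 in 1. Tenocyte markers were present in part of the cells, with Fmod in 23, Thbs4 in 14 and Comp in 7. So were the myofibre markers Mylpf and Tnnt3 in 12 each and Tnnc2 in 8, and the mural marker Acta2 in 16.

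The ribosomal protein genes were among the highest and most evenly present genes of these cells. Present in all 44 cells were 45 of the 87 members (51.7%), against a background of 0.59% of all 12707 symbols, and the members made up 60% of the 75 symbols that met this mark. A median of 5 or more was reached by 80 members (92.0%), with a background of 5.1%. A median of 10 or more was reached by 30 members (34.5%), with a background of 0.464%. The median over members of their median levels was 9.70, and that over the other 12620 symbols was 0.14.

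**Figure D1:**
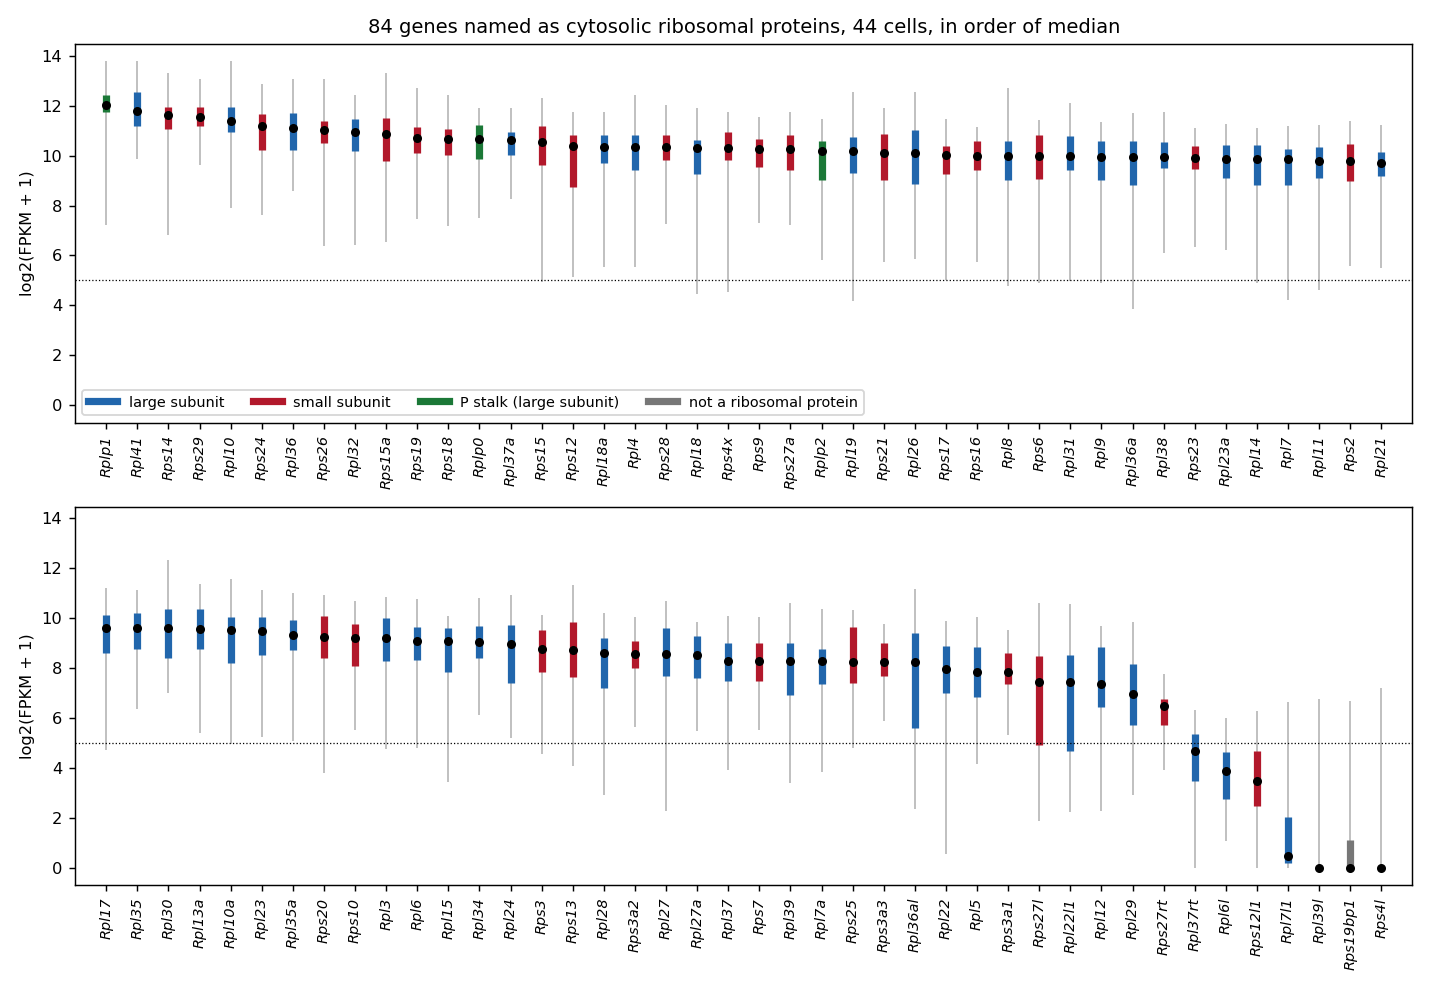
Level of 84 of the 87 genes over 44 cells, in order of the median, as log2(FPKM + 1). Points are medians, thick bars run from the lower to the upper quartile, thin lines from the lowest to the highest cell, colours give the subunit, and the dotted line marks the value of 5. The level falls slowly from Rplp1 at 12.01 to Rps27rt at 6.49 and then drops to the 7 genes with a median under 5.

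The descent along the order was gradual. Of the 79 neighbouring pairs among the 80 members with a median of 5 or more, all 79 had overlapping interquartile ranges. Sorting by the median makes such overlap likely, so this count says little about any pair. The ends did separate: 75 of these 80 had an interquartile range wholly under that of Rplp1. The median interquartile range was 1.47, with 9 members under 1 and 12 at 2 or more. Of the 80, 45 were under the value of 5 in no cell, 18 in 1 cell, 11 in 2 to 5 cells and 6 in 6 or more cells.

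The 3 stalk genes were all present in every cell. Rplp1 (ENSMUSG00000007892, chromosome 9, 61913284 to 61914542, minus strand, GRCm38) had the highest median of all members, 12.01, with quartiles of 11.75 and 12.42. Its lowest cell was cell 11 at 7.21 and its highest cell 38 at 13.78. Rplp0, the base of the stalk (chromosome 5, 115559467 to 115563727, plus strand), had a median of 10.65 and ranged from 7.49 to 11.89. Rplp2, the partner of Rplp1 (chromosome 7, 141447370 to 141451585, plus strand), had a median of 10.19, with a highest cell of 11.5. The interquartile ranges of Rplp1 and of the other two did not overlap, with upper quartiles of 11.23 for Rplp0 and 10.6 for Rplp2.

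Among large subunit genes the highest medians were those of Rpl41, Rpl10, Rpl36 and Rpl32. Rpl41, which encodes the shortest protein of the ribosome, had a median of 11.79 and ranged from 9.86 in cell 36 to 13.78 in cell 24. Its lowest cell was thus above 9.53, the median over large subunit genes of their medians. Rpl10, one of the last proteins added to the large subunit and needed for subunit joining, had a median of 11.39 and ranged from 7.89 to 13.78. Rpl36 followed at 11.09 (8.57 to 13.05) and Rpl32 at 10.95 (6.43 to 12.42). Of 48 large subunit members, 19 were present in all 44 cells.

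Among small subunit genes Rps14 and Rps29 led. Rps14, a protein near the platform of the small subunit, had a median of 11.63 and ranged from 6.83 in cell 36 to 13.32 in cell 43. Rps29, a zinc-binding protein in the head of the small subunit, had a median of 11.56 with a lowest cell of 9.61. Rps24 had a median of 11.19 (7.62 to 12.85), Rps26 11.03 (6.39 to 13.05) and Rps15a 10.86 (6.56 to 13.32). Rps24 and Rps26 are mutated in some people with Diamond-Blackfan anaemia, a failure of red cell production. Of 35 small subunit members, 23 were present in all 44 cells, and the median of medians was 9.99.

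No single member was the highest in most cells. Rplp1 and Rpl41 each led in 10 cells, Rpl36 in 5, and Rpl10, Rps14 and Rps29 in 4 each. Another 6 members (Rps24, Rps26, Rpl26, Rpl31, Rpl37a and Rpl8) led in the remaining 7 cells. Over all cells Rplp1 made up 5.04% and Rpl41 4.72% of the summed linear values of the members.

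The 10 lowest members were of several kinds. Rpl12 at 7.38 and Rpl29 at 6.95 were the lowest of the genes that are neither paralogues nor copies. Rpl12, which lies at the foot of the stalk, ranged from 2.27 in cell 4 to 9.68 in cell 38 and was under 5 in 5 cells. Rpl29, without which mice survive, ranged from 2.93 to 9.86 and was under 5 in 8 cells, spread over 5 of the blocks. Rps19bp1 was listed at 0 in 31 cells and present in 4, the highest being cell 27 at 6.68. The others of the 10 were the paralogues and copies described next.

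Without paralogues, copies and Rps19bp1, 74 genes remained, 45 of the large and 29 of the small subunit. Their medians ran from 6.95 to 12.01. Of their 3256 values over genes and cells, 66 (2.03%) were under 5. In 15 cells all 74 were present, and the fewest, 67, were present in cell 11. Of the 74, 43 were present in all 44 cells, 22 large and 21 small. None of the 74 had a median under the value of 5.

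Paralogues, which encode alternative forms of the same protein, were either present in most cells or rarely present. Rpl22 and Rpl22l1 belong to the first kind. Rpl22 is a non-essential RNA-binding protein of the large subunit, and its loss in mice raises Rpl22l1. Rpl22 (chromosome 4, 152325742 to 152334071, plus strand) had a median of 7.96 and ranged from 0.56 in cell 9 to 9.89 in cell 40. Rpl22l1 (chromosome 3, 28805436 to 28807424, plus strand) had a median of 7.43, ranged from 2.23 in cell 2 to 10.57 in cell 14, and had the widest interquartile range of the 80 members, 3.84. It was present in 32 of 44 cells (72.7%).

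Both Rpl22 and Rpl22l1 were present in 27 cells, Rpl22 alone in 10, Rpl22l1 alone in 5 and neither in 2. Independent presence would put both in 26.9 cells, next to the 27 counted. In cell 14 Rpl22 was at 2.58 and Rpl22l1 at 10.57, and in cell 44 Rpl22l1 was at 3.06 and Rpl22 at 8.40. Over the 44 cells their rank correlation was 0.10, and 0.14 within blocks. The cells with Rpl22l1 under 5 lay in all 6 blocks and the pair.

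Rpl36al, a copy of Rpl36a without introns, was another paralogue present in most cells. It lay a median of 1.90 under Rpl36a on the log2 scale. Rpl36a (chromosome X, 134585654 to 134588062, plus strand) had a median of 9.94 and was under 5 in 2 cells, with 3.87 as its lowest value. Rpl36al (chromosome 12, 69182731 to 69184083, minus strand) had a median of 8.25, ranged from 2.37 in cell 16 to 11.17 in cell 10, and was present in 35 cells. Both were present in 33 cells, Rpl36a alone in 9 and Rpl36al alone in 2. Rpl36a was higher in 32 cells and Rpl36al in 12, and the rank correlation over cells was -0.17. The coding sequences are 87.7% identical, and every run of 50 coding bases of either gene also occurs in transcripts of other genes.

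**Figure D2:**
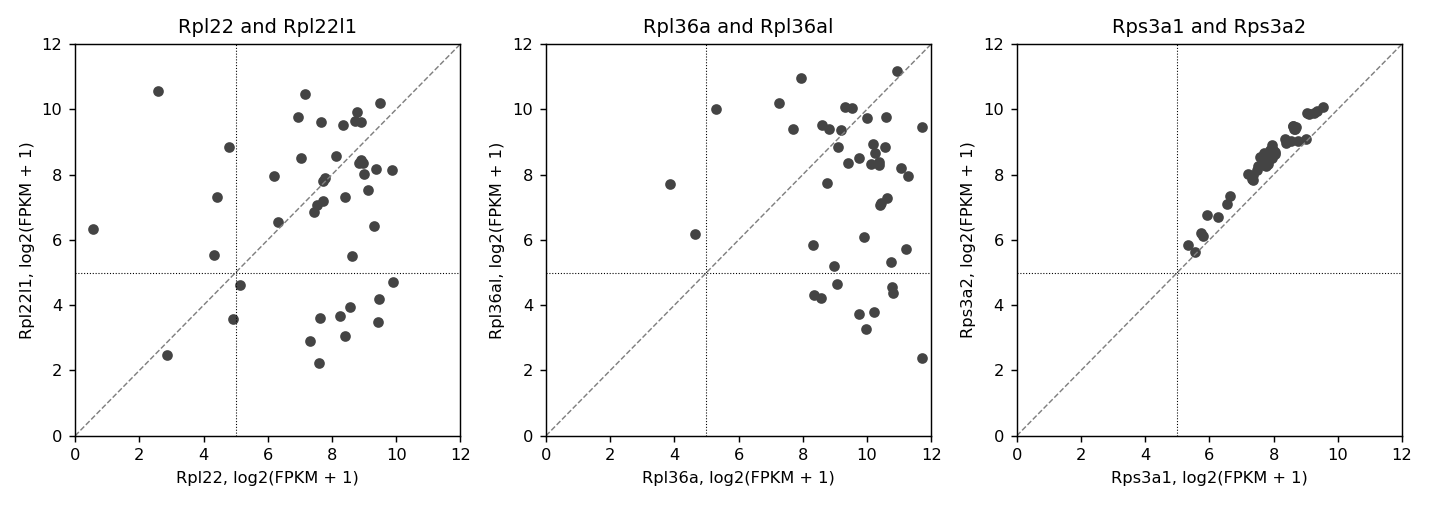
Levels of 3 pairs of genes, 1 point per cell (n = 44), both axes in log2(FPKM + 1). The dashed line is equality and the dotted lines mark the value of 5. Points scatter widely for Rpl22 with Rpl22l1 and for Rpl36a with Rpl36al, and lie in a narrow band above the line for Rps3a1 with Rps3a2, a pair with a rank correlation of 0.97.

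Rps27l, a p53-responsive paralogue of Rps27, had a median of 7.47 and an interquartile range of 3.54. It ranged from 1.88 in cell 13 to 10.61 in cell 14 and was under 5 in 11 cells, spread over 5 blocks. The other paralogues were rarely present. Rpl7l1, a relative of Rpl7, had a median of 0.49 and reached the value of 5 in 3 cells, while Rpl7 was higher in all 44. Rpl39l, best known from the mouse testis, was listed at 0 in 35 cells and present in 2, with 6.77 in cell 12, while Rpl39 had a median of 8.28 over cells. Rps4l, annotated as a pseudogene, was listed at 0 in 34 cells and present in 2, with 7.19 in cell 36, while Rps4x on the X chromosome had a median of 10.29. Rpl3, whose muscle paralogue Rpl3l is not analysed here, had a median of 9.20.

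Annotated pseudogene copies of Rps3a1 were measured above their parent. Rps3a1 is a small subunit protein that contacts initiation factors, and its gene (chromosome 3, 86137940 to 86142702, minus strand) has 6 exons. Rps3a2 (chromosome 14, 88123017 to 88123808, minus strand) and Rps3a3 (chromosome 13, 108670603 to 108671397, plus strand) are processed copies of 1 exon each. The medians were 7.83 for Rps3a1, 8.55 for Rps3a2 and 8.26 for Rps3a3. Both copies were above Rps3a1 in 44 of 44 cells, by a median of 0.64 for Rps3a2 and 0.43 for Rps3a3 on the log2 scale. The 3 levels moved together over cells, with rank correlations of 0.97.

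The coding sequence of Rps3a1 matches Rps3a2 at 99.5% and Rps3a3 at 98.9% of its 792 bases. The stretch from coding base 609 to 668 is shown because no other of its length held more positions where Rps3a1 and a copy differ. Capitals mark the bases at which the parent and a copy differ.
Rps3a1: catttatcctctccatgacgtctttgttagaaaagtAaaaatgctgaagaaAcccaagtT
Rps3a2: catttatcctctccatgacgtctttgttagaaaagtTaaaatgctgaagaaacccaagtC
Rps3a3: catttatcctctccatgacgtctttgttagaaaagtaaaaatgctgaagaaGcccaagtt

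Runs of 50 bases were taken from the coding sequence of Rps3a1 and from the whole sequence of the 2 pseudogenes. Of these runs, 88.3% in Rps3a1, 90.2% in Rps3a2 and 65.1% in Rps3a3 also occur in transcripts of other genes. Reads from shared runs cannot be assigned to 1 gene, and no source used here says how the authors' counting split them. The levels of all 3 are therefore uncertain. The other copies with an analysed parent were measured far below it. Their levels depend on the same splitting of reads. Of their runs of 50 bases, 100% were shared in Rps12l1, 76.4% in Rpl6l and 42.5% in Rpl37rt. Rps12l1, which matches the coding sequence of Rps12 at 100% of its bases, had a median of 3.47 and lay a median of 6.31 under Rps12. Rpl6l lay 4.84 under Rpl6 and Rpl37rt 3.78 under Rpl37, with identities of 96.8% and 99.7%. In these 3 pairs the parent was higher in all 44 cells, and the rank correlations were 0.62, 0.62 and 0.63. Rps27rt, whose coding sequence is 100% identical to that of Rps27, had a median of 6.49 and reached the value of 5 in 38 cells. Its runs of 50 coding bases were 100% shared and Rps27 is not analysed here, so this level is uncertain as well.

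Near-identical sequence was common in the whole group. For the median member, 90.2% of the runs of 50 coding bases, or of 50 bases in a pseudogene, also occurred in transcripts of other genes. The share was above 90% for 45 members and under 10% for 5. Among those at 0 were Rpl39l and Rps19bp1. Over the 80 members with a median of 5 or more, the rank correlation of this share with the level was -0.19, and over the 78 of them with a coding length that of the level with this length was -0.09. Rps14 shared 51.7% and Rplp1 60.4%, while Rpl41, with 75 coding bases, shared 100%.

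The summed share of the members varied 2.52 times between cells. It ranged from 9.36% of the linear FPKM sum in cell 8 to 23.6% in cell 43, with a median of 15.4% and a mean of 15.95% ± 3.71 (SD, n = 44 cells). Among the 100 highest genes of a cell between 19 and 45 were members, with a median of 31. Between 74 and 83 of the 87 were present in a cell, the fewest in cells 8 and 20 and the most in cells 7 and 27. The mean log2 level over members ran from 7.82 in cell 8 to 9.47 in cell 43.

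**Figure D3:**
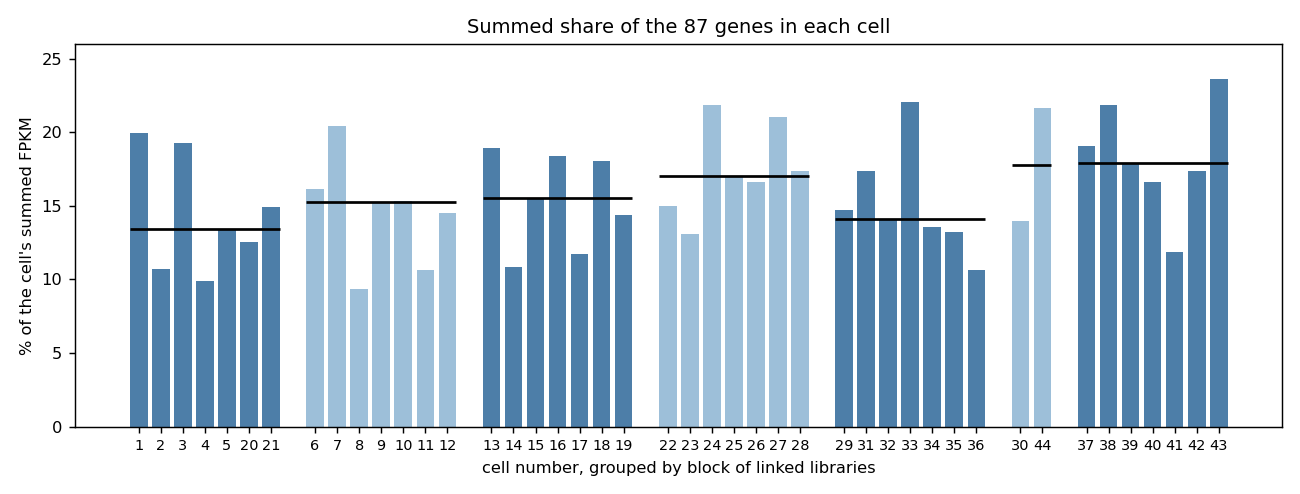
Share of each cell's summed FPKM held by the 87 genes, in percent, 1 bar per cell. Cells are grouped by block of linked libraries and black lines are block medians. Every block of 7 holds cells on both sides of the median of 15.4%, and block medians lie between 13.4% and 17.9%.

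Blocks of linked libraries differed less than the cells within them. The medians of the 6 blocks of 7 were 13.4%, 15.2%, 15.5%, 17.01%, 14.1% and 17.9%, and the pair of cells 30 and 44 had 13.9% and 21.6%. Differences between blocks made up 16.7% of the variance, and the SD within blocks was 3.58. The blocks formed 2 larger sets, with means of 14.8% ± 3.47 (SD, 21 cells) and 17.03% ± 3.66 (SD, 23 cells). What these sets are is not given in the labels, so a difference in handling and one in the cells cannot be told apart.

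Markers of other cell types were set beside the share. Over 44 cells, which share the forced distribution, the rank correlation with the mean level of 4 mural markers was -0.46. It was -0.26 with 3 endothelial, -0.23 with 3 myofibre, -0.17 with 3 tenocyte, -0.02 with 3 blood, 0.06 with 2 satellite cell and 0.15 with 7 fibroblast markers. The endothelial markers were present in 0 cells, and no blood or satellite cell marker was present in more than 1. The values for these classes therefore rank mostly levels under the threshold of 5 and carry little. Of the mural markers, Acta2 was present in 16 cells, Rgs5 in 9, Kcnj8 in 2 and Mcam in 2. Their medians were 2.705, 1.408, 0 and 0, so the mural value also ranks mostly levels under 5. The same holds for the myofibre markers Mylpf, Tnnt3 and Tnnc2, with medians of 2.307, 2.566 and 1.099. Cell 36, with a mean mural level of 9.78, had a share of 10.6%, and cell 30, with 7.71, had 13.9%. Cell 8, the cell with the lowest share, had 3 of 7 fibroblast markers present and a mean tenocyte marker level of 11.66. Cells 17 and 40, with tenocyte levels of 11.84 and 12.06, had shares of 11.8% and 16.6%. The part of these markers in the share was not tested.

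Large and small subunit genes were high or low in the same cells. The mean level of the large subunit genes, stalk included, ranged from 7.70 to 9.40, and that of the small subunit genes from 7.66 to 9.56. The small subunit mean counts Rps19bp1 by its name, although it is not a ribosomal protein. The mean level of Rps19bp1, 0.99, lowers the small subunit mean. Across 44 cells Pearson's r was 0.84 and Spearman's rho 0.85, and within blocks rho was 0.84. Both means share library and distribution. The large subunit mean was below the small subunit mean in 32 cells and above it in 12, with a mean difference of -0.13 ± 0.27 (SD, n = 44 cells) and a range from -0.66 in cell 32 to 0.42 in cell 23. Over the 74 genes without paralogues, copies and Rps19bp1 the difference was -0.45 ± 0.28, and the large subunit was below in 38 cells. Over members with a median of 5 or more, which also leaves Rps19bp1 out, the mean difference was -0.257. The size of the difference thus depends on which members are counted, Rps19bp1 among them. The rank correlation of the difference with the summed share was -0.04.

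**Figure D4:**
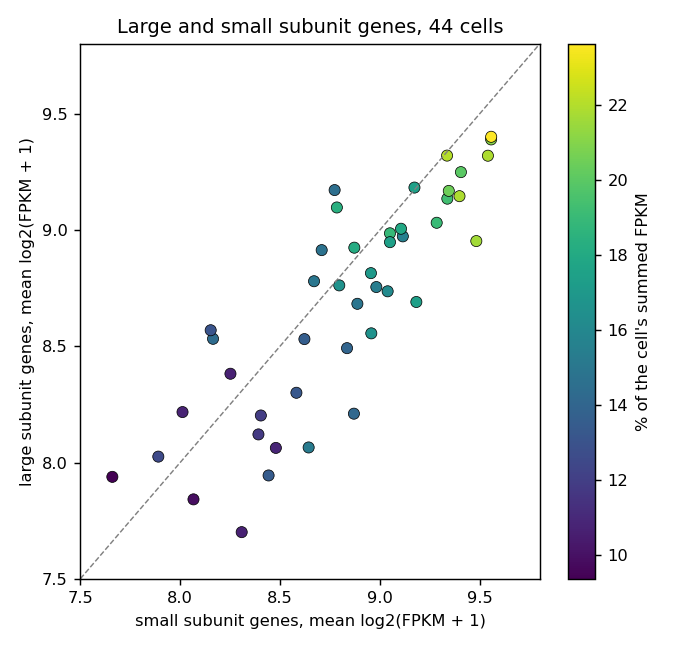
Mean level of large subunit genes against that of small subunit genes in each of 44 cells, both as mean log2(FPKM + 1). The small subunit mean includes Rps19bp1, which is not a ribosomal protein. Colour gives the summed share in percent and the dashed line is equality. The points run along the line, from cell 8 at the lower left to cell 43 at the upper right, and 32 of 44 lie below it.

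Single members followed one another only loosely. Over the 3160 pairs among the 80 members with a median of 5 or more, the median rank correlation across 44 cells was 0.13, and 78.3% of pairs were above 0. Within blocks the median was 0.12. For the 568 other genes with a median of 5 or more it was 0.01, with 51.9% above 0, and between these genes and members it was 0.02. Pairs within a subunit (0.13) and across subunits (0.13) had the same rounded median. Apart from the Rps3a1 copies, high pairs included Rplp1 with Rps15a at 0.55 and Rpl21 with Rpl27a at 0.55. Rplp1 was the member that followed the mean of the other members most closely, at 0.59, and Rps3, Rps20 and Rps7 came next with 0.58, 0.57 and 0.55. Rpl31 and Rpl19 followed it least, both at 0.09.

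Of the genes outside the group, those nearest to the mean of the members over cells included genes of translation and ribosome assembly. Of 568 compared, the 10 highest rank correlations included those of Rpsa at 0.50, Tpt1 at 0.49, Plac9a at 0.49, Plac9b at 0.47, Eef1a1 at 0.47, Npm1 at 0.46, Tmem100 at 0.45, Sod3 at 0.43 and Use1 at 0.43. The median of all 568 was 0.04. Rpsa is a small subunit protein that falls outside the name rule. Eef1a1 is the elongation factor that carries transfer RNAs to the ribosome, Tpt1 encodes a protein of a known TOP mRNA, and Npm1 is a nucleolar protein of ribosome assembly. Plac9a and Plac9b are near-identical neighbours and count as 1 observation.

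The lowest were Ptma at -0.56, Mgp at -0.44, Dusp1 at -0.42 and Pea15a at -0.34. Ptma encodes prothymosin alpha, a nuclear acidic protein, and Mgp an inhibitor of calcification secreted by stromal cells. Ptma and Mgp were among the high genes, with medians of 10.16 and 10.57. In values forced to a common distribution the levels of high genes are not independent of one another, and the part of this was not tested. Within blocks, 6 of the 10 highest and 2 of the 4 lowest were the same genes.

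The 4 measured ribosomal proteins outside the name rule lay at the same height as the members. Fau, which encodes Rps30 fused to a ubiquitin-like protein, had a median of 10.82 (7.56 to 12.1) and Rpsa 9.21 (6.14 to 10.71), both present in 44 cells. Gnb2l1, the signalling scaffold Rack1 on the small subunit, had a median of 8.81 (3.10 to 10.99), with 36 cells at 5 or more. The mean of the 4 had a rank correlation of 0.74 with that of the members, and Fau alone had -0.06.

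**Figure D5:**
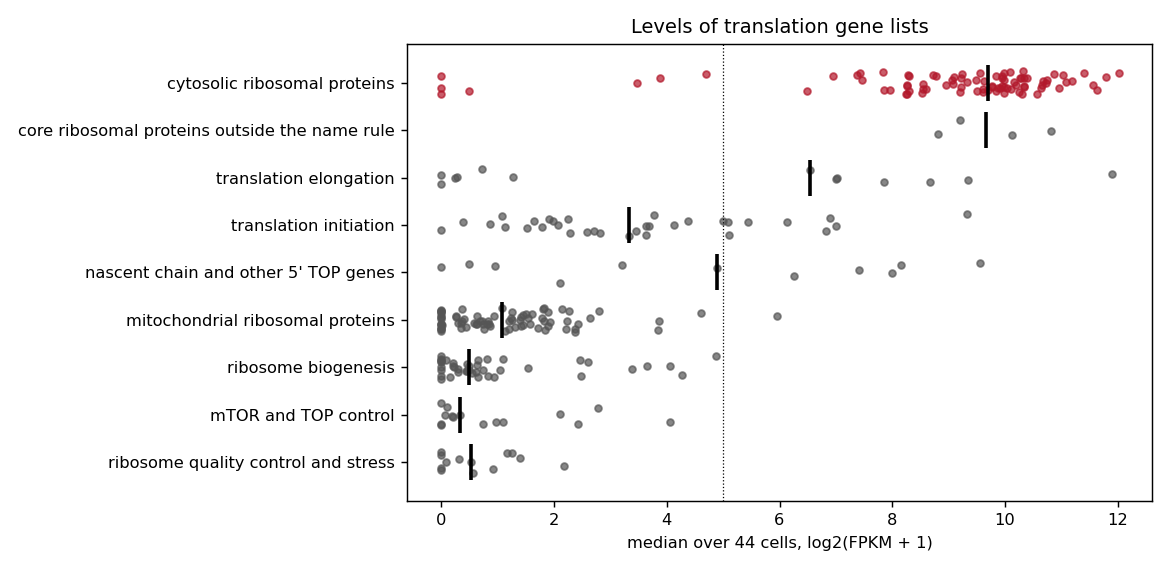
Median level over 44 cells of each gene in 9 lists, as log2(FPKM + 1), 1 point per gene and a black line at the median of each list. The dotted line marks the value of 5. The cytosolic ribosomal proteins and the 4 ribosomal proteins outside the name rule lie mostly to the right of it, and the mitochondrial ribosomal proteins almost wholly to the left, with 1 of 77 beyond it.

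Genes that work with the ribosome stood lower. For the counts that follow, the background of a median of 5 or more is 5.1% of all symbols. Of 13 elongation genes, 7 had a median of 5 or more, led by Eef1a1 at 11.89, Tpt1 at 9.34, Eef2 (the translocation factor) at 8.66 and Eif5a at 7.85, while Eef1e1 had a median of 0. Gspt1, a termination factor in the same list, was at 0.00 after rounding and reached 5 in 2 cells. Of 33 initiation genes, 8 reached it. Eif1, which guards start codon choice, had a median of 9.32 and was in all 44 cells at 5 or more, followed by Eif3k at 6.995, Eif3e at 6.89 and Eif4a1 at 6.83. Eif3b at 0.39 and Pabpc4 at 0 were the lowest. Of 11 further genes with TOP mRNAs or nascent chain roles, 5 reached it, with Vim at 9.55, Naca at 8.15, Npm1 at 8.003 and Gas5, a snoRNA host, at 7.41, while Snhg1 was at 0.50 and Snhg6 at 0. The lists' medians of medians were 6.54, 3.34 and 4.89, against 9.70 for the members and 0.14 for all other symbols.

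The genes in the lists for making and controlling ribosomes had medians under 5, far from the levels of the members. As lists they were not under the table as a whole. Npm1, which also acts in ribosome assembly, was counted among the further TOP genes, at 8.003. The medians of medians were 0.49 for biogenesis, 0.34 for mTOR and TOP control and 0.52 for quality control and stress, against 0.14 for all other symbols. Of 41 ribosome biogenesis genes 0 had a median of 5 or more, and with a background of 5.1% and lists of this size such counts say little. Of the 41, Ncl, a nucleolar protein, was highest at 4.87, then Ubtf at 4.26, Rrp1 at 4.06 and Sbds at 3.65. Rrp12 and Polr1e were at 0. Of 15 mTOR and TOP control genes 0 reached it. Rheb, the activator of mTOR complex 1, was at 4.07, Eif4ebp1 at 2.78, Myc at 2.42 and the kinase Rps6kb1 at 2.11, while Mlst8 was listed at 0.00 after rounding and Eif4ebp2 at 0. Of 13 genes of ribosome quality control and stress 0 reached it, with Trp53 at 2.18, Nemf at 1.39, Zak at 1.26 and Gcn1l1 at 1.18, and Zfp598 and Eif2ak3 at 0.

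The genes for the mitochondrial ribosome lay far under those for the cytosolic one. Of 77 mitochondrial ribosomal protein genes 1, Mrpl52 at 5.95, had a median of 5 or more, with the same background of 5.1%, and 0 were present in all 44 cells, with a background of 0.59%. Mrpl23 followed at 4.62, Mrps21 at 3.85 and Mrpl30 at 3.85, and Mrps27 and Mrps12 were at 0. The median of medians was 1.08, under the 9.70 of the members and above the 0.14 of all other symbols. The mean level of these genes had a rank correlation of -0.06 with that of the cytosolic ribosomal proteins over 44 cells, against 0.46 for elongation, 0.30 for initiation, 0.41 for the further TOP genes and 0.10 for biogenesis. Gene lists of low level rest on few cells each, so their correlations carry little.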

How the data were processed

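The authors deposited 1 table of log2 values named as FPKM for 12745 rows and 44 cells, made with TopHat2 and Cufflinks on GRCm38 per the submitters' processing notes, which give no versions. The base 2 and the added 1 are inferences from the values, whose highest is 14.95. Rank by rank, the 4000 highest values lay within 0.0876 of one another over the cells, so a common distribution had been imposed, by a method that no source used here names. Where a symbol had several rows the one with the highest mean was kept, 18 symbols written as dates were restored, and 12707 symbols remained. The design had assumed FPKM, so thresholds were applied as log2 values.

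Linear values are 2 to the power of the log2 value, minus 1. Blocks were found by average linkage on rank correlations over genes that are not members, cut at 0.525 (Otsu's method). Computation used Python 3.11.15, numpy 2.4.6, pandas 2.3.3 and scipy 1.17.1, and steps over many genes were tested on simulated data. Shared sequence was searched in 50-base windows of coding sequence, or of the whole sequence for annotated pseudogenes.

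Named genes are the 10 highest and 10 lowest members, the 5 with the widest interquartile range among those with a median of 5 or more, stalk genes, paralogue pairs, the genes most and least like the member mean, and per list the 4 highest and 2 lowest by median. Other members were named after their values were seen. Members, lists and thresholds were chosen with earlier results of these data known. Some genes that this rule names are not reported here.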

Additional observations from a re-analysis of the deposited data

How the results depend on the processing

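Of 36 alternatives, 27 left their result within the limits set and 9 moved it. The limit was the SD of the main result over cells, members or pairs, or a fixed ratio for counts and ratios. These limits are wide, so a result within them can still have changed in size. The number of members present in all cells depended on the threshold: 45 at a log2 value of 5 became 82 above 0, 80 at 1, 78 at 2 and 14 at 7, and lay between 45 and 52 when each block of linked libraries was left out. The difference between subunits was -0.134 with all members, Rps19bp1 being counted with the small subunit by its name. It became -0.449 without paralogues, copies and Rps19bp1, a choice made after seeing the data. The part of each of these in the change was not tested. The difference was -0.257 with a median or with members of a median of 5 or more. At a log2 value of 1, Rpl22 and Rpl22l1 were both present in 43 cells, against 27 at 5. Of the 10 genes nearest to the member mean, 6 were shared within blocks and 9 with Pearson's r. Within 50 bases of the start CCGGAAG was found in 14 members and GGGCGG in 23, against 25 and 38 in the whole window. For CTTTCC these counts were 20 and 25. The narrower window holds fewer bases, and the part of this in the counts was not tested. The median summed share fell from 15.4% to 11.7% without members that have 5 or more named pseudogenes, within the limit set by an SD of 3.71. No paired analysis was possible because all cells form 1 group. Depth is unknown, so an absence at low level and a missed transcript cannot be told apart.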

Other observations

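Of the members, 28 host 54 snoRNA genes, small RNAs that guide the modification of ribosomal RNA and are cut from introns. A total of 12 of these snoRNAs had a row. Of the 12, 8 were present in 0 cells. Snora21 within Rpl23, Snord72 within Rpl37 and Snord100 within Rps12 were each present in 1 cell, at 13.78 for Snora21 and at 14.95, the highest value of the table, for Snord72 and Snord100. With a common distribution imposed on the cells, 14.95 is the top rank of a cell, which Fos and Ly6a also reached in other cells or the same.

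A list of 20 immediate early genes, which switch on quickly after a stimulus, was added after the data were seen. Of these, 10 had a median of 5 or more, with a background of 5.1% of all symbols. The list was led by Fos at 10.66, Zfp36 at 7.34, Egr1 at 7.25 and Jun at 6.27. Fosb at 1.02 and Egr2 at 0 were the lowest. The mean level of the 20 genes had a rank correlation of -0.21 with the member mean over 44 cells and -0.36 within blocks. Their part in the levels of the ribosomal protein genes was not tested.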
